A study of Anopheles merus and Anopheles coluzzii with 36 samples.

Results

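A module of 79 genes was examined that dipped in Anopheles coluzzii larvae at 30% of the salinity of seawater and had returned by 50%, and the course of the same genes was followed in Anopheles merus. The members were chosen from the An. coluzzii libraries alone apart from a floor on the mean level. With L the log2 of the group mean plus 0.5 CPM (read counts scaled to the size of the library), a gene had to have a mean of at least 5 CPM over the 36 libraries, an L at 30% at least 1 below that at 0%, an L at 50% at least 1 above that at 30%, and less than 1 between 50 and 0%. These conditions were met by 79 of the 8758 genes with that mean level, which is 0.902% of them, and by 79 of all 10905 genes in the table. A further 39 genes met the conditions on the differences but had a lower mean level. Of the members, 71 also reached 5 CPM over the An. coluzzii libraries alone, and 8 reached the floor through their level in An. merus.

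Both species are malaria vectors of the Anopheles gambiae complex. The study set larvae of An. merus, which is euryhaline, beside larvae of An. coluzzii, which is stenohaline and lives in fresh water. All larvae grew up in fresh water to an age of 18 h after hatching, and separate pools then spent 6 h in water at 0, 10, 20, 30, 40 or 50% of seawater salinity. The 12 groups had 3 libraries each of polyA RNA, made from a pool of 35 to 50 whole larvae, so fewer cells of a type and less RNA per cell cannot be told apart. The labels name no strain, and since separate cultures are not stated for the pools, p-values measure the spread between these pools alone. The libraries held 9174563 to 24092192 reads in An. merus and 15369828 to 24835904 reads in An. coluzzii. No member had a count of 0 in any library, and the lowest count of a member was 15 reads.

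Mosquito larvae in fresh water lose salt and gain water, and they take up ions through the anal papillae and reabsorb them in the hindgut. Above the concentration of their own haemolymph they face the opposite gradient, and salt-tolerant species then drink and secrete a concentrated urine from the rectum. In anopheline larvae the placement of the sodium pump in the rectum is known to shift with salinity in salt-tolerant species. Which of these functions the 79 genes serve could not be given, since the deposited table lists identifiers without names and the reference table used here, of 16199 An. merus genes, matched 0 of them. Genes are therefore given by identifier, with no position.

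The choice of the members fixed the shape of their course in An. coluzzii, so the following values describe it and test nothing. The median change of L from 0% was -0.26 at 10%, -0.83 at 20%, -1.45 at 30%, -0.67 at 40% and 0.09 at 50%. Single members had changes of -3.19 to -1.01 at 30% and of -0.87 to 0.97 at 50%. The lowest of the 6 group means was at 30% in 72 members, at 20% in 5 and at 40% in 2. In 61 members each step to 30% was downward and each later step upward, as in 7.89% of all genes. The libraries at 30% were all below those at 0% in 76 members, and all below those at 50% in 78. Over all genes these separations held for 29.2 and 34.0%. A fall of at least 1 from 0 to 30% was met by 5.18% and a rise of at least 1 from 30 to 50% by 6.17% of the genes with a mean of at least 5 CPM.

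**Figure D1:**
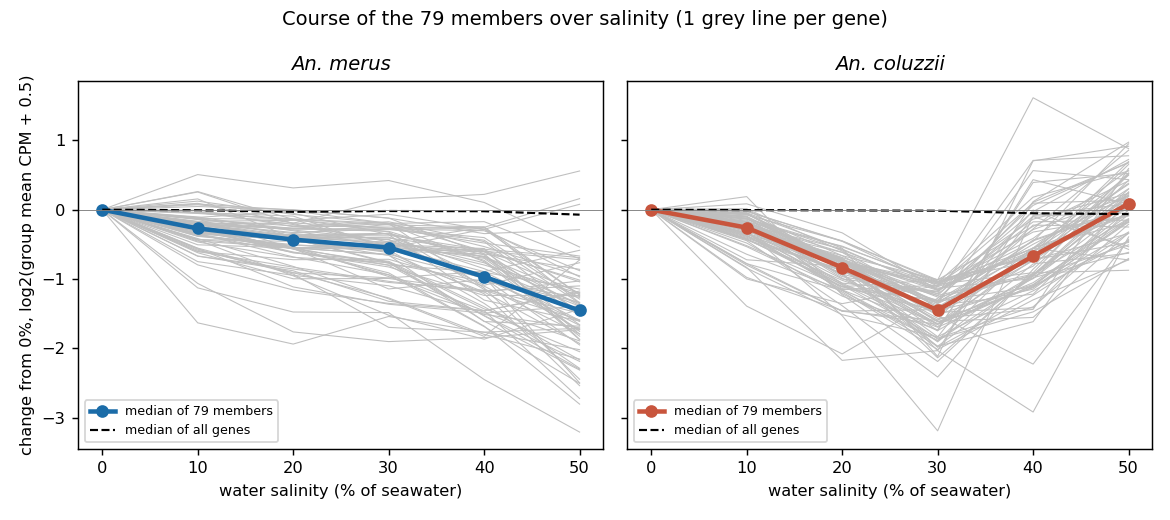
Change from 0% in L, the log2 of the group mean plus 0.5 CPM, against water salinity in An. merus (left) and An. coluzzii (right), with 1 grey line per member, the median of the 79 members in colour and the median of all 10905 genes dashed. The An. merus median falls to -1.46 at 50%, and the An. coluzzii median falls to -1.45 at 30% and is 0.09 at 50%.

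The 3 members nearest to each bound of the rule had falls to 30% of -1.01 in L, rises to 50% of 1.0, 1.01 and 1.02, net changes of 0.92, 0.95 and 0.97, and means of 5.38, 5.41 and 5.67 CPM. The 3 genes nearest outside had falls of -0.99, -0.99 and -0.97, rises of 0.97, 0.98 and 0.99, net changes of 1.01, 1.07 and 1.18, and means of 4.43, 4.52 and 4.88 CPM. The set therefore has no gap around it. With 1 of the 9 An. coluzzii libraries at 0, 30 or 50% left out, 56 to 98 genes met the rule, and 45 of the 79 met it in every case. The fewest, 56, of which 55 were members, were found without library A at 0%, in which the median member stood at 4.54 on the log2(CPM + 0.5) scale, against 4.12 in both other libraries at 0%.

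The deepest dip, taken as the smaller of the fall and the rise in L, was 3.19 in AGAP006258. In An. coluzzii this gene measured 104, 91.9 and 144 CPM at 0%, 78.7, 100.2 and 97.2 CPM at 10%, and 37.4, 39.5 and 40.0 CPM at 20%. It measured 8.93, 12.2 and 14.7 CPM at 30%, 76.9, 123 and 122 CPM at 40%, and 114, 124 and 123 CPM at 50%. The 3 libraries at 30% were the lowest of that species, and 2 of the 3 at 40% lay within the range of 0%. In An. merus it measured 33.7, 67.8 and 36 CPM at 50%, against 279, 140 and 271 CPM at 0%, with no overlap. The fold change was -2.32 ± 0.27 on the log2 scale (SE; adjusted p = 1.7e-08 by limma).

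AGAP003759 had the second deepest dip, of 2.42. In An. coluzzii it measured 14.8, 8.99 and 5.53 CPM at 0%, 6.50, 7.35 and 7.28 CPM at 10%, and 2.97, 4.01 and 3.33 CPM at 20%. It measured 1.34, 1.65 and 1.3 CPM at 30%, 4.31, 5.54 and 5.66 CPM at 40%, and 13.5, 15.4 and 11.0 CPM at 50%. The values at 30% lay apart from all of the others, and at 0% the pools differed more among themselves than at 50%. In An. merus it measured 2.36, 1.29 and 3.08 CPM at 50%, against 21.0, 21.0 and 10.9 CPM at 0%, and again the groups did not overlap (log2 change -2.72 ± 0.27 SE, adjusted p = 7.0e-10 by limma).

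The differences in the rule did not use the An. merus libraries, and there the median of the members declined with salinity up to 50%. Single members differed, and the lowest group mean was at 50% in 64, at 40% in 10, at 30% in 4 and at 20% in 1. Members lower than at 0% by limma, at an adjusted p under 0.05 over all genes, numbered 4 at 10%, 24 at 20%, 37 at 30%, 60 at 40% and 74 at 50%, while 0 were higher at any of these salinities. The matching shares of all genes were 0.578, 7.05, 10.7, 21.5 and 37.7% lower, and 0.22, 4.71, 8.69, 17.8 and 31.9% higher. Members with an unadjusted p under 0.05, in either direction, numbered 23, 45, 53, 66 and 76 of the 79, against 14.6, 29.5, 33.2, 47.8 and 71.8% of all genes. The median log2 fold change of the members was -0.27, -0.43, -0.54, -0.96 and -1.44 from 10 to 50%, against -0.06 at 50% over all genes. These 5 comparisons share the 0% libraries. A count added after the data were seen took the 71 members that reached the floor in An. coluzzii alone. Of these, 4, 23, 32, 54 and 67 were lower from 10 to 50%, and 0 were higher. At 50% edgeR and DESeq2 called 75 members lower and 1 higher on the recovered reads.

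The counts at low salinity in An. merus depended on single libraries. At 10% there were 2 members called without library A at 0% or A at 10%, and 8 without C at 0%. At 20% there were 10 without A at 0% and 11 without B at 20%, and at 30% there were 23 without A at 0%. At 40 and 50% the counts stayed between 54 and 60 and between 73 and 75 lower as each library was left out. The 4 members called at 10% were AGAP006416, AGAP006425, AGAP027980 and AGAP028128, named because they were so few. AGAP006425 fell furthest, to 15, 9.80 and 11.3 CPM at 10%, against 47.7, 41.9 and 25.4 CPM at 0%, a change of -1.61 ± 0.28 in log2 units (SE; adjusted p = 0.0018 by limma).

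**Figure D2:**
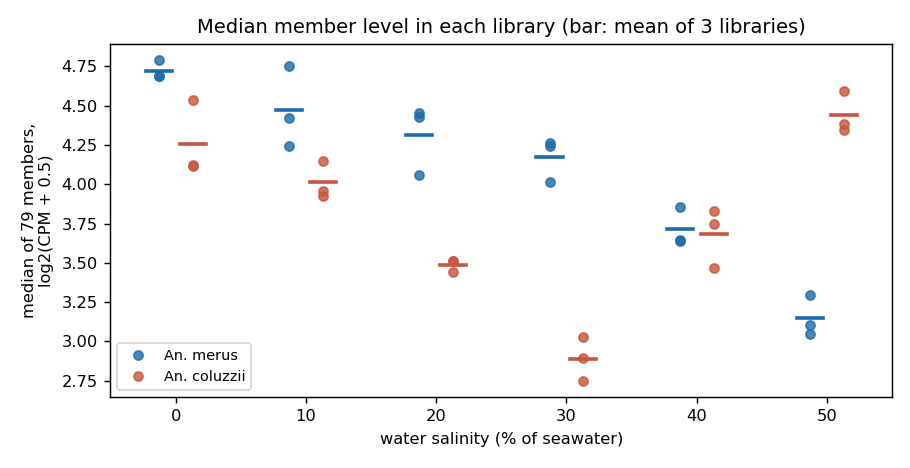
Median of the 79 members in each of the 36 libraries, as log2(CPM + 0.5), against water salinity, with An. merus in blue and An. coluzzii in red and a bar at the mean of 3 libraries. In An. merus the 50% libraries lie lowest, from 3.05 to 3.30, and in An. coluzzii the 30% libraries, from 2.75 to 3.03, while the An. coluzzii libraries at 50% lie from 4.34 to 4.60.

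At 50% the fall in An. merus was at least 2-fold in 62 of the 79 members, against 13.1% of all genes. In 71 members the 3 libraries at 50% were all below the 3 at 0%, as in 36.9% of all genes. The group means fell at every step from 0 to 50% in 39 members, as in 10.3% of all genes, and 64 members were lowest at 50%. These counts were taken over all 79 members, with the 8 that reached the floor through An. merus included.

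The largest falls in An. merus at 50% among members called without overlap were in AGAP008448 and AGAP008694. AGAP008448 measured 5.24, 3.25 and 12 CPM at 50%, against 72.5, 78.2 and 51.5 CPM at 0% (log2 change -3.37 ± 0.82 SE, adjusted p = 0.00061 by limma). Its pools varied widely, also in An. coluzzii. There it measured 12.1, 8.52 and 2.14 CPM at 30%, against 63.5, 31.9 and 2.35 CPM at 0%. Its fall to 30% therefore rests on libraries A and B at 0%. Its lowest group mean in An. coluzzii was at 40%, with 3.17, 4.19 and 4.26 CPM. AGAP008694 measured 0.884, 1.56 and 1.42 CPM at 50%, against 13.5, 12 and 10.6 CPM at 0% in An. merus, a log2 change of -2.82 ± 0.21 (SE). It averaged 3.96 CPM in An. coluzzii and reached the floor only through the An. merus levels from which this fall is measured, so the fall is given as a description. In An. coluzzii it measured 1.21, 1.14 and 1.04 CPM at 30%, 1.01, 2.43 and 1.31 CPM at 40%, and 8.35, 5.26 and 7.81 CPM at 50%, so the return came between 40 and 50%.

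The 5 members not called in An. merus at 50% were AGAP004981, AGAP010815, AGAP010816, AGAP011806 and AGAP011807. AGAP010816 was the member with the highest fold change there, 0.50 ± 0.23 (SE; limma adjusted p = 0.053), and measured 2.30, 5.75 and 4.75 CPM at 50%, against 3.6, 2.24 and 2.36 CPM at 0%, with overlap. AGAP011806 measured 255, 255 and 231 CPM at 50%, against 262, 183 and 257 CPM at 0% in An. merus (log2 fold change 0.09 ± 0.31 SE, limma adjusted p = 0.80). In An. coluzzii the same gene measured 48.3, 51.7 and 117 CPM at 0%, 16.5, 18.3 and 24.8 CPM at 30%, and 48.7, 65.8 and 34.8 CPM at 50%.

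For An. merus, 50% was also compared with 30%. This comparison can miss a turn after 40%, where 10 members had their lowest group mean, and 50% against 40% was not tested. Of the members 55 were lower at 50% and 2 were higher, against 30.4 and 24.4% of all genes, and the median log2 fold change was -0.95. Among the 71 members that reached the floor in An. coluzzii alone, 50 were lower and 2 higher. The 2 higher members were AGAP004015 (0.40 ± 0.17 SE, limma adjusted p = 0.044) and AGAP008358 (0.53 ± 0.21 SE, limma adjusted p = 0.033). AGAP008358 measured 5.01, 8.86 and 6.64 CPM at 50%, against 4.16, 4.74 and 4.51 CPM at 30% in An. merus, with no overlap, but it was still lower than at 0% (-0.74 ± 0.21 SE, limma adjusted p = 0.0027). Without A at 50%, 3 members were higher. Both lost the call at 50% against 30% with library totals as the scaling and without replicates B or C at 50% or C at 30%. AGAP004015 also lost it with quantile normalization and without B at 30%, and AGAP008358 with the species fitted alone and without A at 30%.

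**Figure D3:**
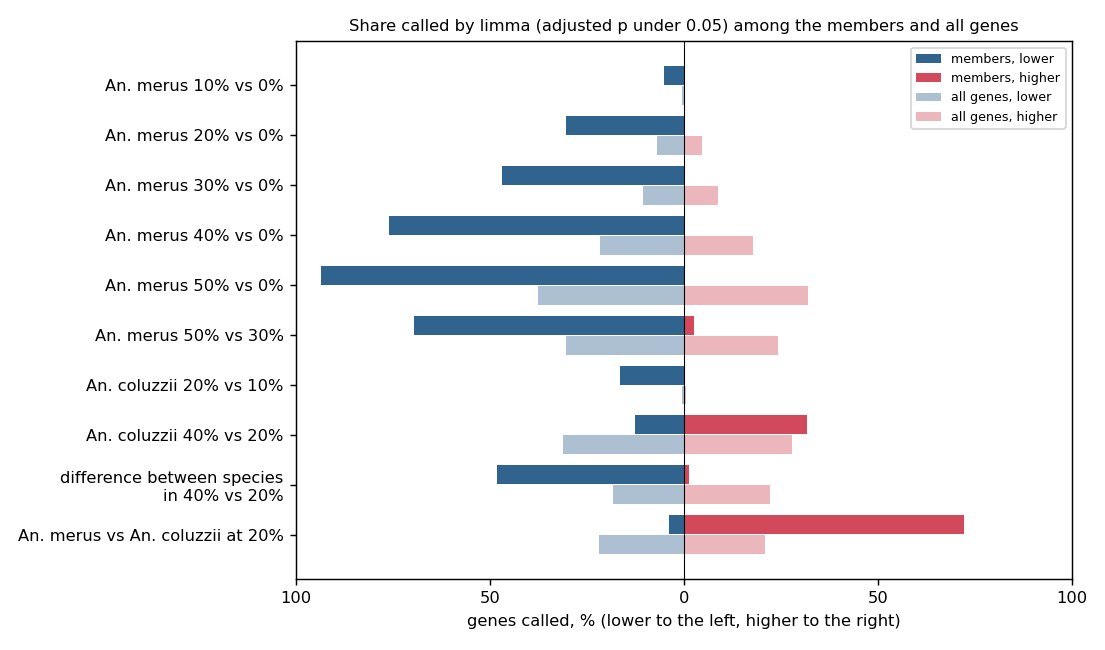
Share of genes called lower (left of 0) and higher (right of 0) by limma at an adjusted p under 0.05 in each comparison, for the 79 members (dark bars) and all 10905 genes (pale bars); the difference between species is An. merus minus An. coluzzii. For An. merus at 50% against 0%, 93.7% of the members and 37.7% of all genes are lower. For An. coluzzii at 40% against 20%, 12.7% of the members are lower and 31.6% higher, against 31.1 and 27.7% of all genes.

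Within An. coluzzii, the 10, 20 and 40% libraries took no part in the differences that chose the members. From 10 to 20% the members had a median log2 fold change of -0.60, and 79 of 79 were negative, between -1.42 and -0.10, while the median of all genes was 0.00. Of these 13 passed the test, all lower, against 0.614% of all genes lower and 0.44% higher, and 73 had an unadjusted p under 0.05, against 15.1% of all genes. The count was small and unstable. Leaving out library A, B or C at 10% gave 3, 1 or 2 members, leaving out A, B or C at 20% gave 0, 5 or 4, and DESeq2 gave 28.

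From 20 to 40% the members divided. Of 79, 25 were higher at 40% and 10 were lower, against 27.7 and 31.1% of all genes, and 44 were not called. The median log2 fold change was 0.14, with values from -1.46 to 2.02. With library totals as the scaling, which moved the median of all genes to -0.24, against -0.02 with the deposited scaling, 20 members were higher and 19 lower and the median of the members became -0.09. The direction of the members as a whole over this step therefore depends on the scaling. Without library C at 20% or B at 40%, 6 members were lower and 25 higher. By the group means, the level at 40% stood at a median of 51.2% of the way in L from 30 to 50% (quartiles 30.9 and 73.3%), exceeded that at 0% in 11 members and was below that at 30% in 2. These last values use the groups of the rule and are a description.

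AGAP006387 and AGAP006425 rose most from 20 to 40% and AGAP011124 and AGAP007728 fell most, a choice of 4 made with their values in view. AGAP006387 measured 15.7, 29.2 and 24.8 CPM at 40%, against 5.59, 5.10 and 4.83 CPM at 20% in An. coluzzii (log2 change 2.02 ± 0.21 SE, adjusted p = 2.7e-09 by limma). Its libraries at 0% measured 9.74, 6.78 and 5.22 CPM, so it stood above the fresh water range at 40%. AGAP006425 measured 26.5, 19.0 and 18.4 CPM at 40%, against 5.11, 4.62 and 5.25 CPM at 20% (1.97 ± 0.28 SE, limma adjusted p = 9.0e-07), and its lowest level in An. coluzzii was at 20%.

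AGAP011124 was still falling at 40%, with 3.57, 3.65 and 4.45 CPM there, against 10.5, 13.3 and 10.9 CPM at 20% in An. coluzzii (log2 fold change -1.46 ± 0.20 SE, limma adjusted p = 4.0e-07). At 50% it measured 14.7, 11.2 and 18.6 CPM, with no overlap with 40%. AGAP007728 measured 4.58, 6.14 and 6.18 CPM at 40%, against 10.2, 10.9 and 9.89 CPM at 20% (-0.83 ± 0.15 SE, limma adjusted p = 2.7e-05), and 15.1, 13.4 and 12.9 CPM at 50%. AGAP011124 was 1 of the 2 members with their lowest group mean at 40%.

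**Figure D4:**
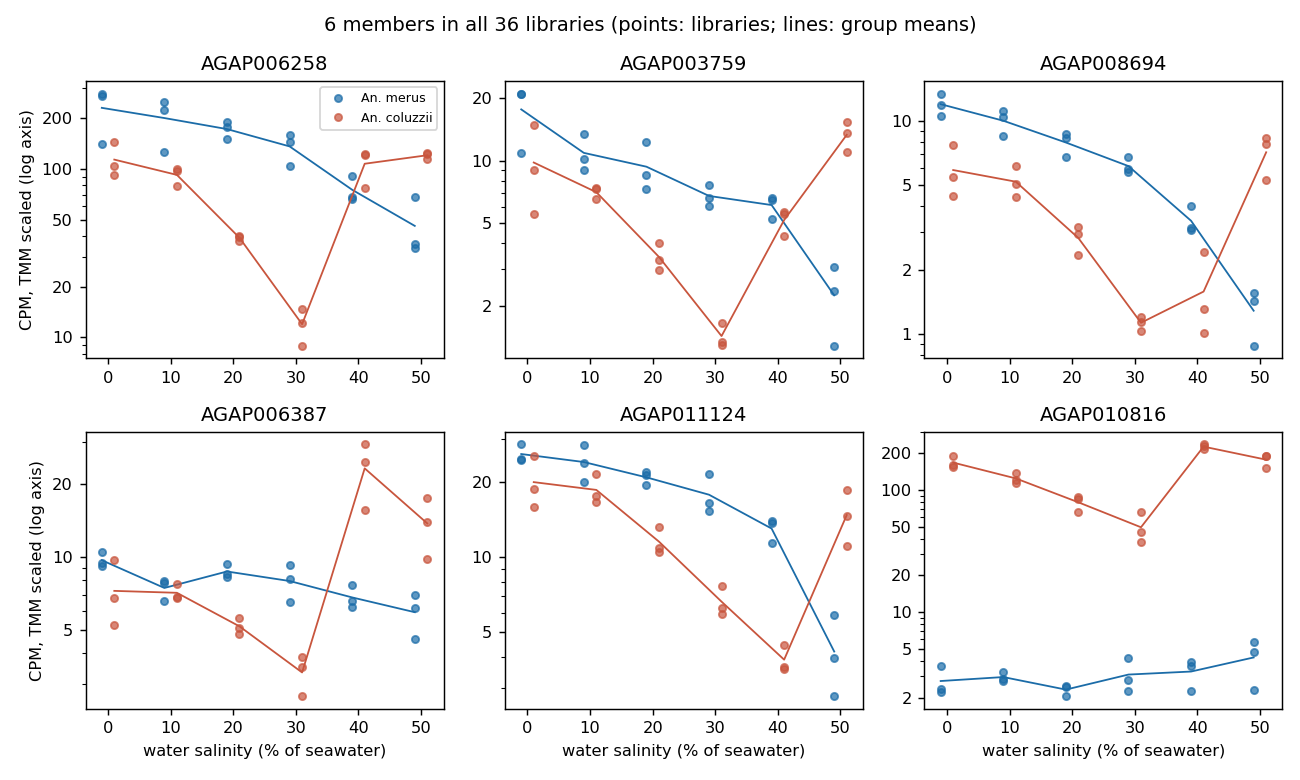
CPM on a log axis against water salinity for 6 members, with 1 point per library and lines through the group means, An. merus in blue and An. coluzzii in red. AGAP006387 is above its 0% range at 40% in An. coluzzii, AGAP011124 is lowest there, and AGAP010816 lies between 2.05 and 5.75 CPM in all An. merus libraries.

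The change from 20 to 40% was compared between the species by their interaction. It uses none of the groups in the differences that chose the members, though the floor on the mean level used all libraries. The response was lower in An. merus for 38 members and higher for 1, against 18.3 and 22.1% of all genes, with a median difference of -0.53 log2 units. With library totals as the scaling the numbers were 25 and 2, and the median difference of all genes was 0.20, against -0.01 with the deposited scaling. The median of the members was then -0.32. With the deposited scaling, among the 71 members that reached the floor in An. coluzzii alone, the response was lower for 33 and higher for 1. AGAP008358, named because it differed most, differed by -2.64 ± 0.30 (SE; limma adjusted p = 7.9e-08). It measured 3.19, 2.72 and 2.84 CPM at 40%, against 7.11, 4.11 and 7.92 CPM at 20% in An. merus, and 15.2, 14.9 and 16.9 CPM at 40%, against 4.48, 4.40 and 4.78 CPM at 20% in An. coluzzii.

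AGAP006258, with the deepest dip, followed at -2.62 ± 0.38 (SE; limma adjusted p = 4.9e-06), and it measured 90.9, 67.8 and 66.5 CPM at 40%, against 150.0, 177 and 189 CPM at 20% in An. merus. The difference of AGAP003759 was -1.08 ± 0.38 (SE; limma adjusted p = 0.023), which lost its call with library totals as the scaling (limma adjusted p = 0.078) and without replicate A at 20% or D at 40% in An. coluzzii or C at 20% or C at 40% in An. merus. The member with a higher response in An. merus was AGAP011124 (0.79 ± 0.28 SE, limma adjusted p = 0.024), since it fell further in An. coluzzii. Its call was lost in 7 alternatives, with adjusted p of 0.050 to 0.064 by limma. These were a pseudocount of 2, the replicate block, and leaving out B at 20%, B at 40% or C at 40% in An. coluzzii or B at 20% or A at 40% in An. merus.

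**Figure D5:**
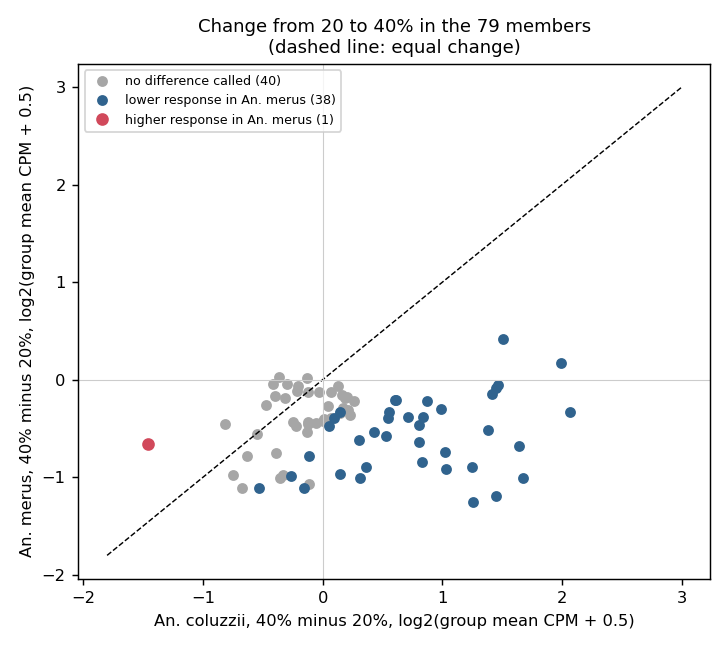
Change in L from 20 to 40% in An. merus (vertical) against An. coluzzii (horizontal), 1 point per member, coloured by the interaction test, with a dashed line at equal change. The 38 members with a lower response in An. merus lie below the line, 1 lies above it, and 40 were not called.

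At 20% the level of the members was compared between the species directly. Higher levels in An. merus were called for 57 members and lower levels for 3, against 21.0 and 21.9% of all genes, and the median log2 difference was 0.81. The 8 members that reached the floor on the mean level through An. merus were all called higher there, and their part in the count is set by the floor. Of the 71 others, 49 were higher and 3 lower, with a median of 0.78. Without C at 20% in An. merus, 5 of the 79 were lower. The share of reads aligned is not given per species, so unequal alignment cannot be told apart from unequal expression here. The 3 lower members were AGAP010816, AGAP010815 and AGAP028128. AGAP010816 measured 2.45, 2.05 and 2.48 CPM in An. merus, against 87.6, 66.8 and 84.0 CPM in An. coluzzii at 20%, a log2 difference of -4.82 ± 0.23 (SE). It reached the floor only through An. coluzzii, so this difference is given as a description. AGAP010815 measured 10.1, 10.4 and 12.4 CPM in An. merus, against 53.4, 68.7 and 55.9 CPM in An. coluzzii (-2.38 ± 0.24 SE, limma adjusted p = 3.9e-09).

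By group means, the median of the members in An. merus minus An. coluzzii was 0.45 in L at 0%, 0.82 at 20%, 1.25 at 30%, 0.28 at 40% and -1.21 at 50%. At 30% the level was higher in An. merus for 74 members, and at 50% it was lower in An. merus for 70. Of all 10905 genes, 5254 were higher in An. merus at 30% and 5976 were lower at 50%, with medians of -0.03 and -0.10. The values at 0, 30 and 50% use An. coluzzii groups of the rule and are given as a description.

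The members were set beside the other 375 genes with a mean of at least 5 CPM that were lower by at least 1 in L at 30% in An. coluzzii but missed another condition of the rule. In An. merus at 50% against 0%, 74 of 79 members (93.7%) and 298 of these 375 genes (79.5%) were lower, with median log2 fold changes of -1.44 and -1.38. At 50% against 30% in An. merus, 55 members (69.6%) and 268 of the others (71.5%) were lower, with medians of -0.95 and -1.04. Higher there were 2 members and 13 of the others, so the decline in An. merus was not particular to the members. From 10 to 20% in An. coluzzii, 13 members (16.5%) and 26 of the others (6.93%) were lower and 0 of either were higher. The medians were -0.60 and -0.37. At 20%, 57 members (72.2%) and 182 of the others (48.5%) were higher in An. merus than in An. coluzzii, and 3 and 30 were lower. In An. coluzzii at 40% against 20%, 25 members (31.6%) and 19 of the others (5.07%) were higher, and the medians were 0.14 and -0.82. In the interaction the response was lower in An. merus for 38 members (48.1%) and 43 of the others (11.5%). It was higher for 1 member (1.27%) and 123 of the others (32.8%). Over all genes 18.3% were lower and 22.1% higher. The rule did not use the An. coluzzii libraries at 40%, but it did part the sets by the return at 50%. The floor on the mean level used all libraries, and 8 members reached it through An. merus. How many of the 375 did so was not counted. Whether the sets differ was not tested.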

How the data were processed

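The authors deposited 1 normalized expression signal per gene and library, given in the file's name as CPM with TMM scaling, filtered for low genes and without ribosomal RNA. The tools named in the submitters' processing notes are Trimmomatic, Bowtie2, TopHat2, HTSeq and edgeR. Not given in the sources used here were their versions, the genome build and the annotation. TMM makes changes relative to the bulk of genes. All values were whole multiples of 1 read, within 0.001, and these multiples were taken as reads. Of the 5 lane parts of An. coluzzii replicate C at 50%, the column's name shows 1, and whether it holds all is not stated. Without it 83 genes met the rule, 75 of them members.

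Values were tested as log2(CPM + 0.5) with limma 3.58.1 in R 4.3.3, in 1 model of 12 group means with a trend on the mean. Tests were two-sided, and p-values were adjusted by Benjamini and Hochberg's method over 10905 genes, called under 0.05. The pseudocount makes fold changes of low genes too small. The members, lists and comparisons were chosen with earlier results of these data known. Lists of genes by function could not be applied, since no identifier matched a name. Named were the 2 deepest dips, the 2 members fallen most in An. merus at 50% without overlap (0 had risen), the few members of small counts, and others where said. The procedure was tested on simulated data. Alternatives were pseudocounts of 0.1 and 2, a mean of at least 5 CPM, quantile normalization, library totals, a block for the replicate letter, each species alone, edgeR 4.0.16 and DESeq2 1.42.0 on the recovered reads, and each library left out. Counting only members that reached the floor in An. coluzzii alone was added after the data were seen. Replicates differed by more than sampling noise in every pair. Figures were drawn with matplotlib 3.10.9.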

Additional observations from a re-analysis of the deposited data

Results flagged for a closer look

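The change from 20 to 40% differed between the species by the interaction test in 39 members. The response was lower in An. merus for 38 and higher for 1, against 18.3 and 22.1% of all genes. With library totals as the scaling the numbers of members were 25 and 2. AGAP008358 (-2.64 log2 units), AGAP006258 (-2.62) and AGAP003759 (-1.08) were among those with the lower response, and AGAP011124 (0.79) was the one with the higher response. The calls of AGAP003759 and AGAP011124 were lost in several alternatives. Each library was left out in turn, but no separate test for outlying libraries was made in the groups of 3.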

How the results depend on the processing

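The number of genes that met the rule was 53 to 112 under other pseudocounts, mean levels, scalings and averaging, of which 52 to 79 were members. Counts of members called in both directions together moved by over 1.5 times only in 4 comparisons at low salinity. In An. merus, leaving out 1 library gave 2 to 8 members at 10%, 10 to 35 at 20% and 23 to 39 at 30%. In An. coluzzii at 20% against 10% it gave 0 to 5, and DESeq2 gave 28. By direction, library totals gave 19 lower members in An. coluzzii at 40% against 20%, against 10 as deposited, and 25 lower in the interaction, against 38. Leaving out 1 library gave 6 to 8 lower members in An. coluzzii at 40% against 20%, and directions with 3 or fewer members also moved. Over all genes edgeR called 7440 in An. merus at 50% and 4280 in the interaction, 100% of the values having come out as whole reads. Library totals moved the median of all genes in An. merus at 50% to -0.18, against -0.06 as deposited, and at 50% against 30% to -0.16, against -0.01.

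The main model did not take the replicate letters to pair the libraries. Correlations of their deviations over 0.1 were more frequent in same-letter pairs, which does not settle whether the letters mark a pairing. In An. merus 23 of 45 same-letter pairs were over 0.1 (median 0.10), against 24 of 90 with other letters (median -0.04), and in An. coluzzii 16 of 36 (median 0.03), against 30 of 99 (median -0.02). With the replicate block 75 members were called in An. merus at 50%, 34 in An. coluzzii at 40% against 20% and 37 in the interaction. In An. merus the block gave 6 members at 10%, 30 at 20% and 40 at 30%, against 4, 24 and 37 without it. A shared effect of the letter was not tested. Of 96 results for single genes that passed the test, 18 lost it in at least 1 alternative, 79 losses in 1487 refits, and 0 changed sign; the causes were not tested.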

Other observations

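Of the 79 members, 10 fall into 5 pairs whose identifiers differ by at most 2, such as AGAP010815 with AGAP010816 and AGAP011806 with AGAP011807. Both genes of the first pair were lower in An. merus than in An. coluzzii at 20%, with log2 differences of -2.38 and -4.82 by limma. AGAP011806 was higher in An. merus by 3.18 ± 0.31 (SE; limma adjusted p = 1.3e-09). At 20% the mean of AGAP011807 was 29.6 CPM in An. merus, against 1.94 CPM in An. coluzzii, but it reached the floor on the mean level only through An. merus, so its difference is a description. These 4 genes are also 4 of the 5 members not called in An. merus at 50%. Reads shared within a pair were not looked for, and the genes of a pair are therefore uncertain as independent measurements.

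The mirror of the rule, a peak at 30% in An. coluzzii, was met by 88 genes at the same mean level. In An. merus at 50% against 0%, 87 of these were called higher and 0 lower, with a median log2 fold change of 1.63, against 31.9% of all genes higher and 37.7% lower. The floor on the mean level used all libraries, so genes could reach it through their level in An. merus at 50%. How many did so was not counted, and these numbers are a description. In An. coluzzii at 40% against 20%, 32 of the 88 were higher (36.4%) and 11 lower (12.5%), against 27.7 and 31.1% of all genes.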
